A study of Mus musculus with 8 samples.

Results

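Mediator is the large protein complex that bridges transcription factors bound at enhancers and RNA polymerase II at promoters. Its subunit genes were identified by name, as Med followed by a number, with or without a final l, together with Cdk8, Cdk19 and Ccnc. This gave 33 of the 55401 genes in the files. Its core is built of a head, a middle and a tail module on the scaffold subunit Med14, and a separable kinase module of a cyclin-dependent kinase (Cdk8 or Cdk19), cyclin C (Ccnc), Med12 or Med12l and Med13 or Med13l docks on the core reversibly. The head and middle contact the polymerase, the tail is a landing surface for many activators, and Med1 of the middle module is the classical contact of nuclear receptors.

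AtT-20, a tumour line of mouse pituitary corticotropes, was sequenced as RNA depleted of ribosomal RNA, by the titles and extraction protocol, although the molecule field of the labels reads genomic DNA. Cells of all 8 libraries carry ER-Pax7, a form of the pioneer factor Pax7 that tamoxifen activates. Tamoxifen had been given for 0, 24, 48 or 72 h, with 2 libraries at each time. No dose and no vehicle series are used here, and the labels do not say whether the line is 1 clone or that replicates came from separate cultures. P-values therefore measure library-to-library spread alone, possibly a technical one. ER-Pax7 activity, the drug itself and hours in culture all differ between 0 h and later times and cannot be told apart.

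The values are the authors' normalized signal, read from their range as mean coverage per exonic base of a gene. On that reading levels are set side by side between genes. The mean runs over the merged exons of a gene, so an order of genes also depends on their annotation. How far it does was not tested. The summed signal ran between 164236 and 178548 per library, and 9516 to 9608 genes reached a signal of 1. The corticotrope markers Pomc, Tbx19, Neurod1 and Pcsk1 were present in every group, while Crhr1, the receptor for the hypothalamic releasing hormone, was at most 0.129. Pomc was at 634 and 623 at 0 h, 499 and 552 at 24 h, 548 and 539 at 48 h, and 662 and 679 at 72 h. Tbx19, Neurod1 and Pcsk1 were, like Pomc, higher in both 72 h libraries than in both 0 h libraries. Of 4 melanotrope markers Drd2 was at 0 in every library and Pax7, which the introduced gene may add to, at 12.6 to 14.4. Pcsk2 was at 0.325 and 0.294 at 0 h, 0.622 and 0.590 at 24 h, 0.802 and 0.710 at 48 h, and 0.845 and 0.822 at 72 h. Oacyl was at 0.0129 and 0.0171 at 0 h, 0.237 and 0.374 at 24 h, 0.438 and 0.483 at 48 h, and 0.618 and 0.635 at 72 h. Both were higher in each tamoxifen library than in both 0 h libraries, and their part in the results on Mediator genes was not tested. The summed levels of marker lists of other pituitary, endothelial, immune and fibroblast cells were at most 0.241, 0.0695, 0.171 and 0.537 in any library. One library, the second at 72 h, had mt-Rnr1, a mitochondrial ribosomal RNA gene, at 25.1, while the remaining 7 lay between 1.14 and 5.97. With that library left out, 1 library remained at 72 h, so calls in that fit cannot show whether the left-out library mattered. The median log2 change of tested Mediator genes at 72 h was 0.009, and between -0.014 and 0.019 with single libraries left out.

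Upstream sequence is shown for a subset of members: the kinase Cdk8 and its cyclin Ccnc, and Med9 and Med16, whose levels after 72 h lay on opposite sides of those at 0 h. RefSeq promoter windows (build GRCm38.p6) were found for 28 of the 33 members, 32 windows in all. The 250 bases before the annotated start are printed 5′ to 3′ on the gene's strand, and capitals mark the GC box GGGCGG, the element named CCAAT after its letters, or TATAAA, known as the TATA box, on either strand.

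Cdk8, chr5:146231000-146231249, plus strand: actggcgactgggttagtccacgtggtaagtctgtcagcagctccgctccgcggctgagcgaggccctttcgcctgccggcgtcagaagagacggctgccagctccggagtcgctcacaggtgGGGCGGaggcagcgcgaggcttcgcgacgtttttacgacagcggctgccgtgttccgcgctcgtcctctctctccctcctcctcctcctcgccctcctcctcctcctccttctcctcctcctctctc
Ccnc, chr4:21727451-21727700, plus strand: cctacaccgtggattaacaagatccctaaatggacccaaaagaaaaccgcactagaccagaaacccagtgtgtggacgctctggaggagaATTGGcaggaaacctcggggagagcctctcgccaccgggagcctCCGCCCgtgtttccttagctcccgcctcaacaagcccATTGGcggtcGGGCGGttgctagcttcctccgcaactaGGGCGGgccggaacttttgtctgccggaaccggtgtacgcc
Med9, chr11:59947964-59948213, plus strand: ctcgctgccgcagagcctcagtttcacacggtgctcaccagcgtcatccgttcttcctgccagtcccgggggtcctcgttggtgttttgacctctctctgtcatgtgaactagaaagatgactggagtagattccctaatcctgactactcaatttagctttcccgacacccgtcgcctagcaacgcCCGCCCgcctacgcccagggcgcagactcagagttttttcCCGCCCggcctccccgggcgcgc
Med16, chr10:79908939-79909188, minus strand: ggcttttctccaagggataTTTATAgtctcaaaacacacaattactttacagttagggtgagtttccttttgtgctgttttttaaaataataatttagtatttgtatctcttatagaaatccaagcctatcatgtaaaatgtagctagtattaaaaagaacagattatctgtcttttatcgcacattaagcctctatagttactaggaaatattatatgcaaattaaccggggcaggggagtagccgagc

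The Cdk8, Ccnc and Med9 windows are GC-rich, at 66.4%, 59.6% and 60% G or C with 25, 18 and 20 CpG pairs. Med16 stands apart from them at 33.2% with 3 CpG pairs, and its TATAAA match lies 231 bases before the start. Over the 32 member windows the median was 56% G or C with 15 CpG pairs, against 52.4% and 6 in all 32851 windows. GGGCGG occurred in 20 of 32 member windows (62.5%) and in 32.7% of all windows. The ETS core CCGGAAG occurred in 6 member windows (18.8%, those of Med4, Med10, Med14, Med15, Med17 and Med19), against 6.91% of all. CCAAT occurred in 37.5% and 33.8%, and TATAAA in 9.38% and 12.4%. The palindromic estrogen response element was in 0 of 32 member windows and 0.0639% of all. A homeodomain palindrome with a spacer of 3 was found in the Med20 window alone, against 0.463% of all windows. With a spacer of 2 it was in 0 member windows and 0.384% of all. These matches, searched on both strands, describe letters in the windows and not bound sites.

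Mediator genes were moderately expressed in these cells. Averaged over the 8 libraries, the median member stood at 1.84 and the highest, the head subunit Med8, at 3.39. The median of all 9606 genes with a mean of 1 or more was 2.65, and 31.8% of them lay below the Mediator median. The 2 sets are unlike, since the Mediator median includes 8 members with a mean under 1. Among the 25 members with a mean of 1 or more the middle one, Med30, stood at 2.15. RNA polymerase II subunit genes had a median level of 4.56, cohesin genes 3.62, elongation factor genes 1.77 and general transcription factor genes 1.5003. The last 2 medians also include genes with a mean under 1. Summed over the 33 members, the level was 57.0 and 56.2 at 0 h, 59.7 and 55.97 at 24 h, 57.3 and 56.5 at 48 h, and 58.1 and 56.7 at 72 h, so the groups overlap.

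**Figure D1:**
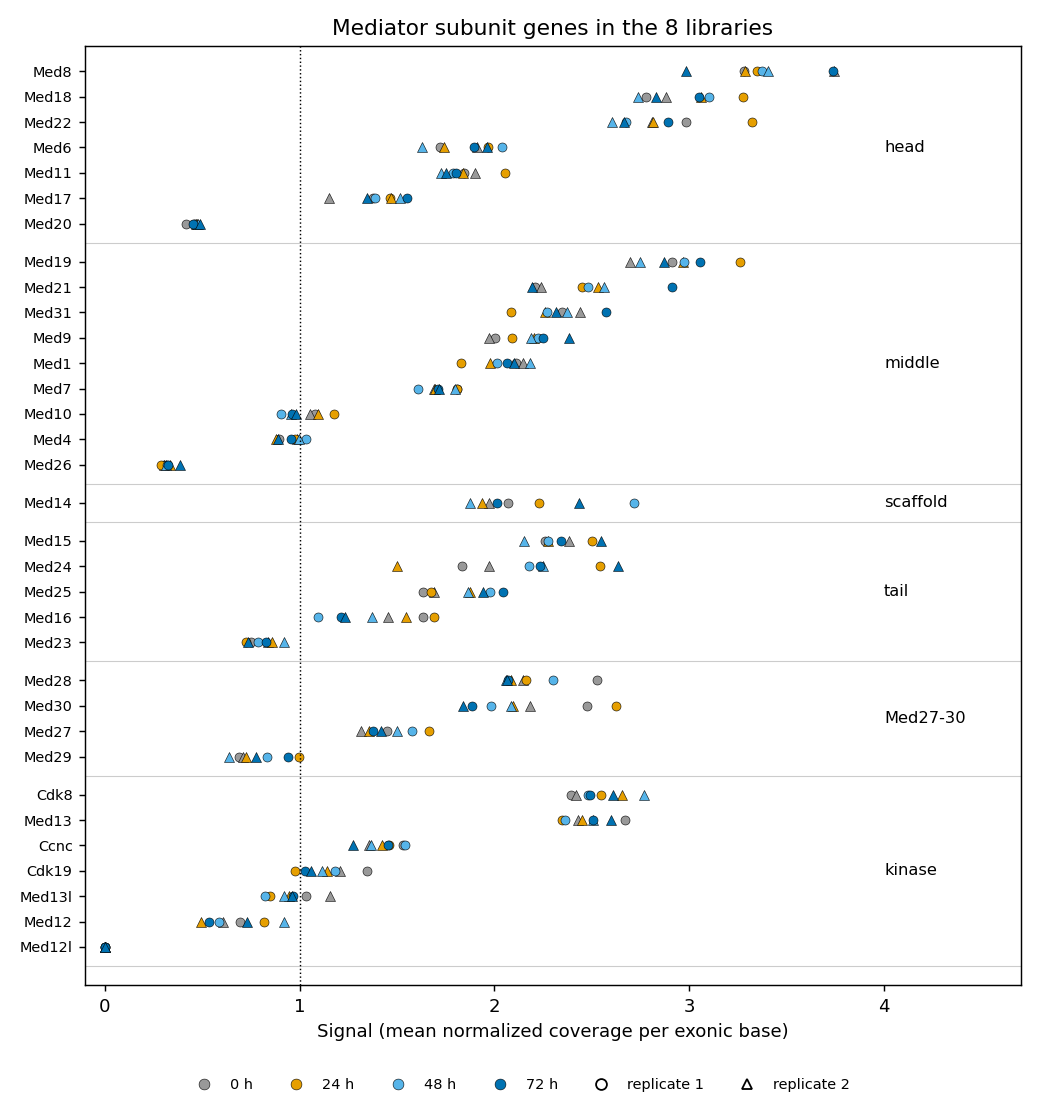
Signal (mean normalized coverage per exonic base, x axis) of each of the 33 Mediator subunit genes in each library, grouped by module; colours give hours of tamoxifen, circles replicate 1 and triangles replicate 2. The dotted line at 1 is the level a gene's mean had to reach to be tested, and Med12l lies at the zero end while Med8 is highest at 2.98 to 3.74.

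Within each module the levels were spread widely. Head subunits ran from Med8 through Med18 (mean 2.96) and Med22 to Med20, at 0.463. In the middle module Med19 was highest at 2.94 and Med26, the subunit that recruits elongation factors to the polymerase, lowest at 0.322. Exonic bases shared with other genes make up 28.4% of Med20, 12.9% of Med19 and 12.7% of Med26. Med8 stood clear of Med18 in mean level, but its 72 h replicate 2 value of 2.98 lies within the Med18 range of 2.74 to 3.28. Neighbours further down the order, such as Med21, Med15 and Med31, overlapped over the libraries and their order is not resolved.

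The mean reached 1 for 25 members, and these were tested. Of the other 8, Med13l (0.956) and Med4 (0.952) were just below this floor, while Med10 (1.03) was just above it. The remaining 6 were Med23, Med29, Med12, Med20, Med26 and Med12l. Members below the floor are described from a fit with a floor and a pseudocount of 0.1, called the low floor, which held 32 members and 17871 genes.

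No Mediator gene passed the test at any time. By limma with Benjamini-Hochberg adjustment over all 9606 tested genes, 0 of 25 were called at 24, 48 or 72 h against 0 h, where 0.229%, 0.552% and 2.01% of all tested genes were called. An F test over the 3 times called 0 members, against 0.344% of all tested genes. At an unadjusted p under 0.05 there were 1 member at 24 h, 2 at 48 h and 5 at 72 h, which is 4%, 8% and 20% of the tested members, against 13.2%, 10.5% and 15.7% of all tested genes. The F test had 1 member (4%, Med16) with an unadjusted p under 0.05, against 13.9%. In bulk RNA, fewer cells of a kind and less RNA per cell cannot be told apart.

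At the low floor 0 of 32 members were called at each time, against 0.162%, 0.548% and 1.57% of its genes. An unadjusted p under 0.05 was reached there by 2, 3 and 5 members over the 3 times (6.25%, 9.38% and 15.6%), against 11.4%, 9.93% and 14.0% of its genes. The F test at that floor called 0 members, against 0.353% of its genes.

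The changes were small on the scale tested, log2(signal + 1), as well as uncalled. This scale understates the change of low genes, and members had a lower median level than all tested genes. Log2 changes of tested genes are given on it and are not the log2 of a signal ratio. The median change over the 25 tested members on the log2(signal + 1) scale was 0.03 at 24 h, -0.01 at 48 h and 0.01 at 72 h, and over all tested genes 0.01, 0.00 and 0.01. At 24 h 18 members were above 0 and 7 below, at 48 h 12 and 13, and at 72 h 14 and 11. Over all tested genes these numbers were 5350 and 4256, 5022 and 4584, and 5121 and 4485. Single members lay between -0.15 and 0.13 at 24 h, between -0.19 and 0.15 at 48 h, and between -0.22 and 0.24 at 72 h. The median size of change regardless of sign was 0.06, 0.08 and 0.06 for members, and 0.07, 0.06 and 0.07 for all tested genes.

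The intervals show what the design can bound. The 95% interval of the change lay within a 1.5-fold change of signal + 1 in either direction for 25 of 25 members at 24 and 48 h and for 24 of 25 at 72 h. The exception was the tail subunit Med24, whose upper bound at 72 h was just past it. These counts depend on the pseudocount. At the low floor the upper bounds of Med24, for signal + 0.1, were 1.62-fold at 48 h and 1.77-fold at 72 h. Members with a mean under 1 are outside the counts. Of these, Med29 had an upper bound of 1.57-fold at 24 and at 72 h, and Med12 of 1.70-fold at 48 h. The lower bound of Med12 was 0.646-fold at 24 h and 0.635-fold at 72 h. The 3 comparisons share the 0 h libraries. Both libraries were above both 0 h libraries for 7, 7 and 4 of 25 members at 24, 48 and 72 h, against 24.4%, 24.3% and 27.4% of all tested genes. Both were below for 3, 6 and 7 members, against 17.8%, 22.0% and 22.4%.

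**Figure D2:**
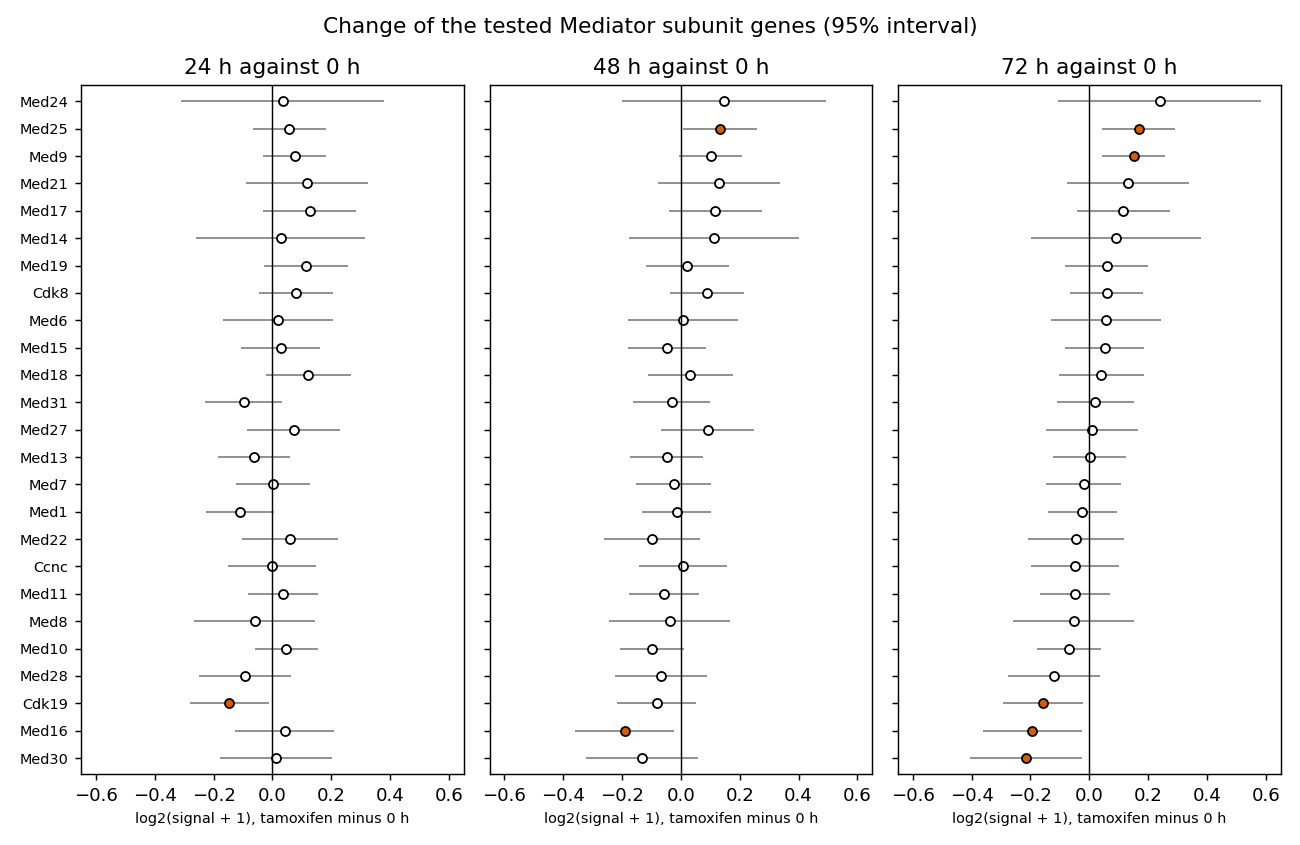
Change on the log2(signal + 1) scale with its 95% interval (x axis) for the 25 tested members at 24, 48 and 72 h against 0 h, ordered by the change at 72 h; filled points have an unadjusted limma p under 0.05. The 5 filled points at 72 h are Med25 and Med9 on the positive side and Cdk19, Med16 and Med30 on the negative side, and 0 points passed the adjusted threshold.

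**Figure D3:**
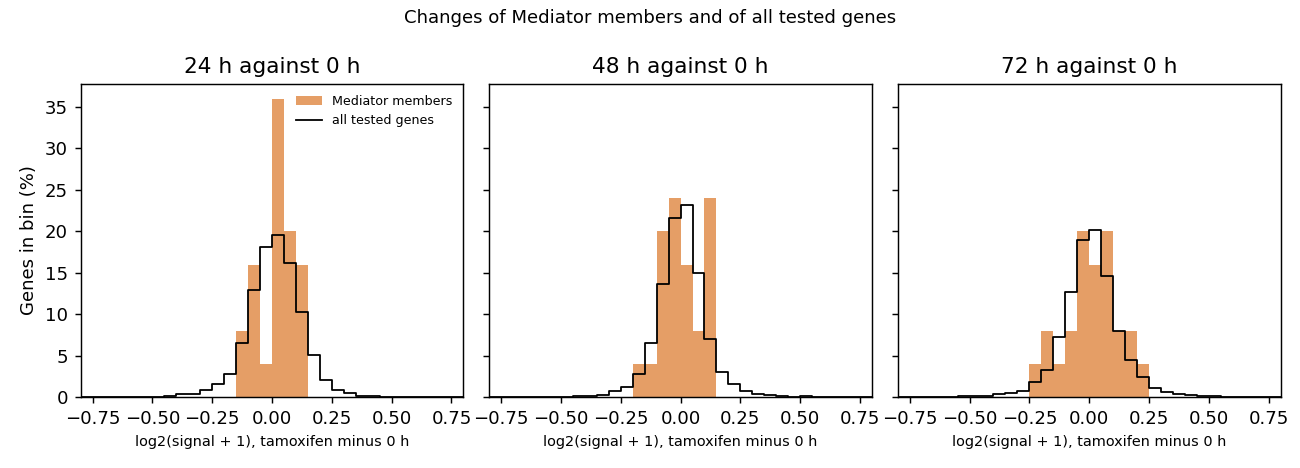
Share of genes (y axis, %) by change on the log2(signal + 1) scale (x axis, bins of 0.05) for the 25 tested Mediator members (bars) and all 9606 tested genes (line). The members lie within -0.22 and 0.24 at every time, inside the range of all genes.

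The kinase module regulates how Mediator meets the polymerase, and 4 of its 7 genes were tested. Cdk8, the kinase itself (ENSMUSG00000029635.15, chromosome 5, 146231230 to 146302874, GRCm38), had a signal of 2.39 and 2.42 at 0 h, 2.55 and 2.66 at 24 h, 2.48 and 2.77 at 48 h, and 2.49 and 2.61 at 72 h. Each of the 6 tamoxifen libraries was above both 0 h libraries, as for 9.58% of all tested genes. The log2 change was 0.08, 0.09 and 0.06, with limma adjusted p = 0.552, 0.646 and 0.666.

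Cdk19, its vertebrate paralogue (chromosome 10, 40339564 to 40483818), had 1.34 and 1.21 at 0 h, 0.976 and 1.14 at 24 h, 1.18 and 1.11 at 48 h, and 1.03 and 1.06 at 72 h. All 6 tamoxifen libraries were below both 0 h libraries, the opposite order to Cdk8. The same held for 6.81% of all tested genes. The log2 change was -0.15, -0.08 and -0.16, and the 72 h interval ran from -0.29 to -0.02 (unadjusted p = 0.0289, limma adjusted p = 0.251). Cdk8 signal was 2.10 to 2.61 times that of Cdk19 in the tamoxifen libraries, against 1.78 and 2.003 times at 0 h. This separation follows from the orders of the 2 genes given above and is no further result. That ratio was not tested. Of Cdk19 exonic bases 4.58% also belong to Cdk19os.

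Med13, which tethers the kinase module to the core, and its paralogue Med13l formed a second such pair. Med13 had 2.67 and 2.43 at 0 h, 2.35 and 2.45 at 24 h, 2.36 and 2.51 at 48 h, and 2.51 and 2.60 at 72 h, with overlapping groups and a log2 change of 0.00 at 72 h (limma adjusted p = 0.997). Med13l had 1.03 and 1.16 at 0 h, 0.850 and 0.943 at 24 h, 0.822 and 0.918 at 48 h, and 0.967 and 0.960 at 72 h, so that its 6 tamoxifen libraries lay below both 0 h libraries. At the low floor its log2 change was -0.26, -0.30 and -0.17, with limma adjusted p = 0.377, 0.329 and 0.511. Of the tested members, Cdk8 and Med9 were higher in all 6 tamoxifen libraries and Cdk19 was lower, 2 and 1 of 25, against 9.58% and 6.81% of all tested genes. Med13l is outside these counts, and no such share was taken at the low floor.

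Med12, which activates the kinase, was among the lowest members and the least steady of those detected throughout. Its signal was 0.695 and 0.608 at 0 h, 0.815 and 0.494 at 24 h, 0.588 and 0.921 at 48 h, and 0.534 and 0.730 at 72 h. At 24, 48 and 72 h the gap between the 2 libraries was wider than the difference between any pair of group means. At the low floor the 72 h change was -0.05 with an interval from -0.65 to 0.56 (limma adjusted p = 0.965). Of its exonic bases 9.72% also belong to Gm21986. Med12l, its paralogue, was at 0 in 7 libraries and at 0.00221 in 24 h replicate 1. Ccnc, the cyclin, had 1.53 and 1.35 at 0 h, 1.46 and 1.42 at 24 h, 1.54 and 1.37 at 48 h, and 1.46 and 1.27 at 72 h, with overlapping groups (limma adjusted p = 0.999, 0.989 and 0.796).

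**Figure D4:**
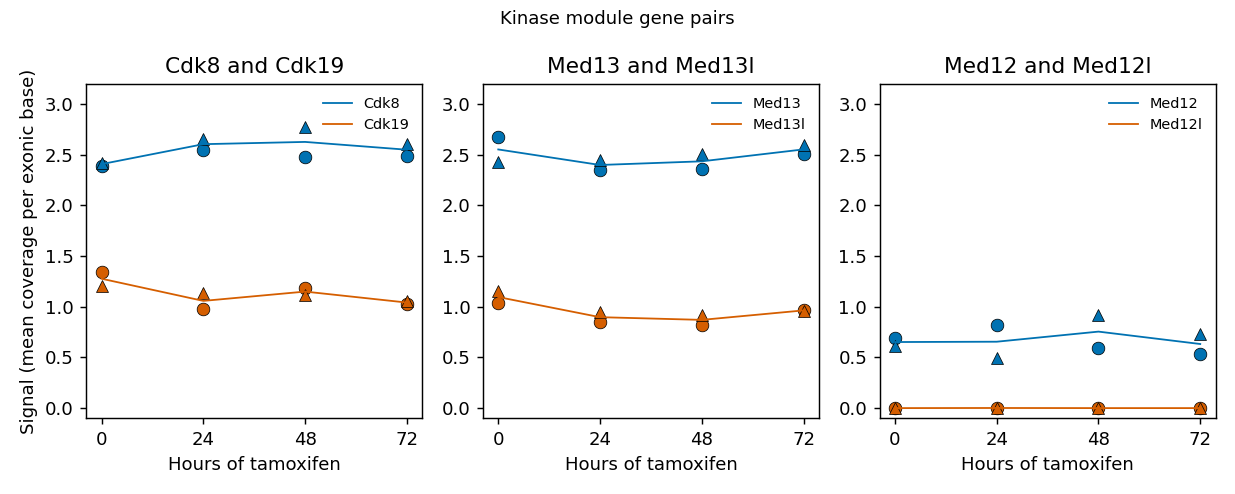
Signal (y axis) against hours of tamoxifen (x axis) for the kinase module pairs Cdk8 and Cdk19, Med13 and Med13l, and Med12 and Med12l; circles are replicate 1, triangles replicate 2 and lines the means. Cdk8 and Cdk19 do not overlap at any time, at 2.39 to 2.77 against 0.976 to 1.34, and Med12l lies at the zero end.

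The 3 tested members with the steadiest replicates were all in the middle module, Med9, Med10 and Med1, with coefficients of variation between libraries of 2.89%, 3.45% and 4.03%. Med9, a small subunit of that module (ENSMUSG00000061650.6, chromosome 11, 59948206 to 59962205), had 2.003 and 1.97 at 0 h, 2.09 and 2.202 at 24 h, 2.22 and 2.19 at 48 h, and 2.25 and 2.38 at 72 h. Its 72 h libraries lay above both 0 h libraries, with a mean of 2.32 ± 0.0970 against 1.99 ± 0.0236 (SD, n = 2 each). That is a ratio of 1.17, with log2 0.15, SE 0.05, unadjusted p = 0.0125 and limma adjusted p = 0.165.

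Med1, the nuclear receptor contact (ENSMUSG00000018160.15, chromosome 11, 98152154 to 98193293), had 2.11 and 2.15 at 0 h, 1.83 and 1.98 at 24 h, 2.01 and 2.18 at 48 h, and 2.06 and 2.10 at 72 h. Its 24 h libraries were both below the 0 h libraries, by log2 -0.11 (limma adjusted p = 0.407), and at 72 h both were again lower, by -0.02 (limma adjusted p = 0.887). Med26, linked to elongation, had 0.304 and 0.306 at 0 h, 0.289 and 0.334 at 24 h, 0.317 and 0.314 at 48 h, and 0.323 and 0.386 at 72 h, with a low-floor change of 0.16 at 72 h (limma adjusted p = 0.610).

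Med21, which pairs with Med7 in the middle module, had 2.21 and 2.24 at 0 h, 2.45 and 2.53 at 24 h, 2.48 and 2.56 at 48 h, and 2.91 and 2.19 at 72 h. Its 24 and 48 h libraries lay above both 0 h libraries (log2 0.12 and 0.13, limma adjusted p = 0.604 and 0.701). At 72 h 1 library was above and 1 below them. Med31 had 2.35 and 2.44 at 0 h, 2.09 and 2.26 at 24 h, 2.27 and 2.37 at 48 h, and 2.57 and 2.32 at 72 h, below 0 h at 24 h alone (log2 -0.10, limma adjusted p = 0.489). Exonic bases shared with other genes make up 15.5% of Med21 and 26.3% of Med31.

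Tail subunits pointed in different directions. Med25, which binds activation domains (ENSMUSG00000002968.9, chromosome 7, 44876765 to 44892712), had 1.63 and 1.69 at 0 h, 1.67 and 1.87 at 24 h, 1.98 and 1.87 at 48 h, and 2.04 and 1.94 at 72 h. Its 48 and 72 h libraries were above both 0 h libraries. The 72 h mean was 1.99 ± 0.0717, against 1.66 ± 0.0410 at 0 h (SD, n = 2 each; log2 0.17, unadjusted p = 0.0152, limma adjusted p = 0.182).

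Med16 (ENSMUSG00000013833.15, chromosome 10, 79894708 to 79908923) had 1.64 and 1.45 at 0 h, 1.69 and 1.55 at 24 h, 1.09 and 1.37 at 48 h, and 1.21 and 1.24 at 72 h. The 24 h libraries overlapped those at 0 h and the later ones lay below. The 72 h mean was 1.22 ± 0.0174, against 1.54 ± 0.129 at 0 h (SD, n = 2 each; log2 -0.19, unadjusted p = 0.0292, limma adjusted p = 0.252). Neither Med16 nor Med25 shares exonic bases with another gene.

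Med24, which sits beside Med16 and Med23 in the tail, had the largest positive change at 72 h, at log2 0.24, but also the widest spread of the tested members. It had 1.83 and 1.97 at 0 h, 2.54 and 1.498 at 24 h, 2.18 and 2.25 at 48 h, and 2.23 and 2.64 at 72 h. The 48 and 72 h libraries were above both 0 h libraries, the 24 h libraries alone spanned nearly the whole range, and limma gave adjusted p = 0.939, 0.831 and 0.498. Med23 lay between 0.725 and 0.922 over the 8 libraries, and Med15, which binds activators, between 2.15 and 2.55.

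Among Med27 to Med30, which lie where tail and head meet, Med30 had the change furthest from 0 at 72 h. This metazoan subunit (ENSMUSG00000038622.8, chromosome 15, 52712408 to 52730564) had 2.47 and 2.18 at 0 h, 2.62 and 2.09 at 24 h, 1.98 and 2.09 at 48 h, and 1.89 and 1.84 at 72 h. At 48 and 72 h both libraries lay below both 0 h libraries. The 72 h mean was 1.86 ± 0.0339, against 2.33 ± 0.207 at 0 h (SD, n = 2 each), a ratio of 0.801 with log2 -0.22, unadjusted p = 0.0315 and limma adjusted p = 0.261. Med28 was at 2.07 and 2.06 at 72 h, against 2.53 and 2.14 at 0 h (limma adjusted p = 0.454). Med29, whose mean was under 1, was at 0.939 and 0.776 at 72 h, against 0.688 and 0.711 at 0 h. Its low-floor log2 change was 0.25, 0.05 and 0.25 at 24, 48 and 72 h (limma adjusted p = 0.621, 0.960 and 0.572).

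**Figure D5:**
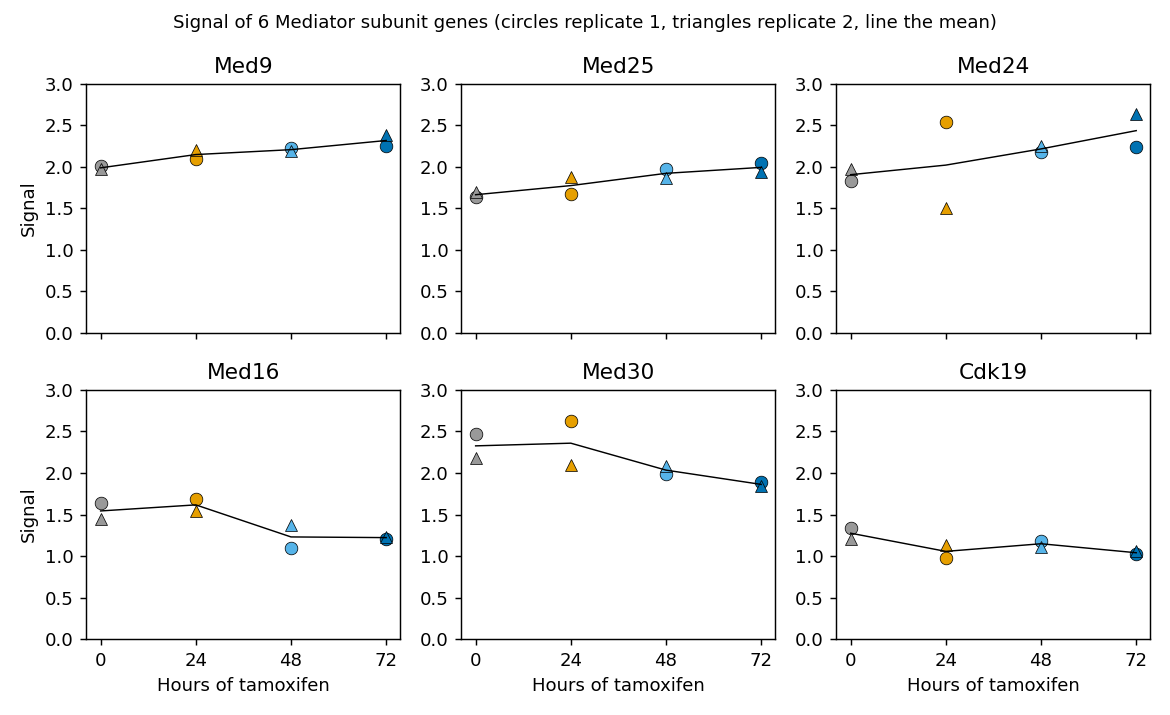
Signal (y axis, from 0) against hours of tamoxifen (x axis) for the 5 members with an unadjusted p under 0.05 at 72 h and for Med24; circles are replicate 1, triangles replicate 2 and the line the mean. Med9 and Med25 end above their 0 h values and Med16, Med30 and Cdk19 below, while the 24 h libraries of Med24 stand at 2.54 and 1.498.

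The head is assembled around Med17. Its 6 tested genes had 3 changes above and 3 below 0 at 72 h, between -0.05 and 0.12. Med17 had 1.38 and 1.15 at 0 h, 1.46 and 1.47 at 24 h, 1.39 and 1.52 at 48 h, and 1.55 and 1.35 at 72 h (limma adjusted p = 0.470, 0.630 and 0.473). At 24 and 48 h both libraries were above the 0 h pair, and at 72 h they overlapped it. Med18 had 2.78 and 2.88 at 0 h, 3.28 and 3.06 at 24 h, 3.10 and 2.74 at 48 h, and 3.05 and 2.83 at 72 h, above 0 h at 24 h alone (limma adjusted p = 0.454). Med22 had 2.98 and 2.81 at 0 h, 3.32 and 2.81 at 24 h, 2.67 and 2.60 at 48 h, and 2.89 and 2.67 at 72 h, below 0 h at 48 h alone (limma adjusted p = 0.709).

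Med14, the scaffold, had 2.07 and 1.97 at 0 h, 2.23 and 1.94 at 24 h, 2.72 and 1.88 at 48 h, and 2.01 and 2.43 at 72 h. All groups overlapped that at 0 h, and its changes of 0.03, 0.11 and 0.09 gave limma adjusted p = 0.942, 0.846 and 0.801. Spread between the 2 libraries of a time, as a coefficient of variation pooled over the 4 times, had a median of 6.95% for tested members and 6.29% for all tested genes. It was 19.4% for Med24 and 15.5% for Med14, and 2.89% for Med9, the lowest of the tested members. Below the floor it was 26.2% for Med12.

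The machinery that Mediator works with was read in the same way. In this comparison, 13 of 13 RNA polymerase II genes, 24 of 33 general transcription factor genes, 19 of 24 elongation factor genes, 10 of 10 cohesin genes and 9 of 16 coactivator and receptor genes were tested. Of the polymerase, general factor and cohesin genes 0 were called at 24, 48 or 72 h, against 0.229%, 0.552% and 2.01% of all tested genes. The median log2 changes of these 3 lists at 72 h were -0.02, -0.01 and -0.05. At 72 h both libraries were above both 0 h libraries for 1, 5 and 1 of their tested genes, and below for 2, 6 and 7. The shares of all tested genes were 27.4% and 22.4%. Of the 10 cohesin genes 8 had a change below 0 at 72 h, against 4485 of all 9606 tested genes. An unadjusted limma p under 0.05 at 24, 48 and 72 h was reached by 1, 0 and 1 polymerase genes, 3, 1 and 2 general factor genes, and 0, 1 and 1 cohesin genes. It was reached by 3, 3 and 2 elongation factor genes and by 2, 1 and 2 coactivator and receptor genes, and over all tested genes by 13.2%, 10.5% and 15.7%. Their 2 furthest members at 72 h were Polr2d (-0.14) and Polr2i (-0.13), Taf5 (0.27) and Taf10 (0.15), and Stag1 (-0.25) and Smc1a (0.22), with limma adjusted p between 0.187 and 0.683. Polr2i and Taf10 share 26.8% and 45.9% of their exonic bases with another gene.

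Nelfcd (chromosome 2, 174415804 to 174427502) encodes a subunit of the NELF complex, which holds polymerase paused near promoters. It was the only elongation factor gene called against 0 h, higher at 48 and 72 h. At 72 h both libraries were above both 0 h libraries for 6 of 19 tested elongation factor genes and below for 7. Over all tested genes these shares were 27.4% and 22.4%. Nelfcd had 6.19 and 5.95 at 0 h, 6.94 and 7.12 at 24 h, 7.87 and 8.24 at 48 h, and 8.90 and 9.15 at 72 h. Each group lay above the one before it. The 72 h mean was 9.02 ± 0.177, against 6.07 ± 0.166 at 0 h (SD, n = 2 each), a signal ratio of 1.49. On the log2(signal + 1) scale the change was 0.50, with SE 0.05 and limma adjusted p = 0.00685. At 48 h limma gave 0.36 on that scale and adjusted p = 0.0359. With single libraries left out the log2 change stayed between 0.48 and 0.53 at 72 h and between 0.33 and 0.39 at 48 h, while the adjusted p could pass the threshold. It was between 0.0523 and 0.111 at 72 h without either 0 h or either 72 h library. At 48 h it was between 0.0785 and 0.311 without any 1 of the 0, 48 or 72 h libraries, 0.0925 without a filter, 0.0680 after quantile normalization and 0.0667 with a replicate block. Larp7, which binds the 7SK RNA that restrains the elongation kinase, had 1.18 and 1.35 at 72 h, against 1.63 and 1.65 at 0 h (limma adjusted p = 0.115).

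Nr3c1, the glucocorticoid receptor gene, is among the receptors that contact Mediator. Its signal was 5.07 and 4.93 at 0 h, 3.43 and 4.09 at 24 h, and 3.96 and 3.85 at 48 h, without a call at 24 or 48 h. At 72 h, with 3.43 and 3.69, it was called lower by limma (log2 -0.40, SE 0.07, adjusted p = 0.0440). The change was between -0.44 and -0.36 with single libraries left out and between -0.48 and -0.40 in the other fits. The call held in 5 of 16 alternative fits, and over all of them the adjusted p lay between 0.0142 and 0.254. The threshold was missed without either 0 h library, either 48 h library or either 72 h library. It was also missed in some of the fits that left no single library out. Esr1, the estrogen receptor gene, which the introduced fusion may share sequence with, had 18.1 and 18.0 at 72 h, against 16.0 and 16.5 at 0 h (limma adjusted p = 0.260).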

How the data were processed

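Per the submitters' processing notes, the tools were HISAT2 2.2, SAMtools 1.12 and deepTools 3.5, with mm10 and GRCm38 named as builds. The counter, its use of strand, the scaling rule and read depth were not given in the sources used here. The authors' deposited values, 1 per gene and library, were read from their range as a signal (mean normalized coverage over merged exons). Without depth, no counting intervals are given. Gene spans of all 33 members equal those of GENCODE M21 (GRCm38), and 16 members share exonic bases with another gene, 6 of them over 10%. Reads over shared bases are not separated.

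Genes whose mean reached 1 were tested as log2(signal + 1), a scale that understates the change of low genes, with limma 3.58.1 in R 4.3.3: group as the only term, an intensity trend, all 8 libraries (4 residual degrees of freedom), threshold 0.05 on adjusted p. The low floor took genes whose mean reached 0.1, with a pseudocount of 0.1. The fit was tested on simulated data. Members and lists were chosen with earlier results of these data known. Named were Med1, Med12, Med14, Med26, the kinase module, called members, the 3 furthest members in each direction at each time and, per partner list, called genes and the 2 furthest at 72 h; Med4, Med8, Med10, Med15, Med19, Med20, Med23, Med28 and Med29 were named after their values were seen. Alternatives were another pseudocount, filter, scaling and variance trend, a replicate block, fits of 2 groups, and each library left out.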

Additional observations from a re-analysis of the deposited data

How the results depend on the processing

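The count of 0 Mediator genes called held at 24, 48 and 72 h in each of 16 alternatives (another pseudocount, filter, scaling or variance trend, a replicate block, a fit of 2 groups, and each library left out), with the smallest adjusted p of any member at 0.103. The F test called 0 members in the 15 in which it was run. Of 496 changes of uncalled named genes recomputed in them, 9 had the other sign. The median change of the members at 24 h ran from -0.021 (without 24 h replicate 1) to 0.076 (without 24 h replicate 2), against 0.035 with all libraries, and at 48 h it was 0.020, against -0.015, at the low floor.

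The background counts over all genes were less stable. Where few genes were called, the count of 0 members carries little information. At 24 h 22 genes were called, 1 in a fit of the 2 groups alone, and 2 to 104 with single libraries left out. At 48 h 53 were called, 26 without a filter, 98 at the low floor, 111 in the 2-group fit and 2 to 95 with single libraries left out. At 72 h 193 were called, 55 without a filter and 9 to 320 with single libraries left out. With the replicate number as a block 24 genes were called at 48 h and 0 members. The number marks no shared batch in the labels, and deviations of same-numbered libraries correlated at -0.02 to 0.40. The causes were not tested. With 2 libraries a time and no read depth, changes inside the stated intervals cannot be resolved.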
